A study of Mus musculus with 6 samples.

Results

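Cytosolic ribosomal protein genes encode the proteins that, with the ribosomal RNAs, make up the 40S and 60S subunits of the ribosome. They were taken by symbol: Rpl and Rps names, the P stalk genes Rplp0, Rplp1 and Rplp2, Rpsa, and the paralogues Rps27l, Rpl22l1 and Rpl7l1. Symbols with the pseudogene mark -ps were left out, while Rps4l, which GENCODE annotates as a transcribed processed pseudogene, was kept. This gave 83 of the 41388 genes in the count table. The low-count filter kept 81 of them, 32 of the small and 49 of the large subunit. Of the remaining pair, Rpl3l had 2 counts in each of PGE2 libraries 1 and 3 and 0 elsewhere, and Rpl10l had 0 counts in every library.

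The cells were primary fibro-adipogenic progenitors (FAPs), the mesenchymal progenitors of skeletal muscle, from wild-type male mice whose age the labels do not give. All were grown in medium with serum and fibroblast growth factor. Libraries of polyadenylated RNA were made from cells given prostaglandin E2 (PGE2, a lipid mediator with receptors coupled to cyclic AMP and calcium) at 500 nM 1 time per day for 2 days, and from cells given vehicle, with 3 libraries in each group. Whether the libraries of a group stem from different animals or dishes is not stated, and p-values then measure only their spread, which may be technical. The comparison addresses the autocrine side of PGE2, the answer of FAPs to the mediator they secrete. In bulk RNA a change per cell and a change in the mix of cells cannot be told apart.

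Each ribosome holds 1 copy of nearly every ribosomal protein, and the genes are transcribed at high rates in growing cells. Their mRNAs are short and begin with a run of pyrimidines (C and T, the 5′ terminal oligopyrimidine or TOP tract), through which the kinase complex mTORC1 and the RNA-binding protein Larp1 set how much of each mRNA is translated and stored. Translation is therefore a major layer of control that a count of mRNA does not see.

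The sequences around the start sites are shown because this tract is the feature by which the family is recognised. RefSeq promoter entries (GRCm38.p6) were matched for 62 of the 83 genes. Each line gives 60 bases, 30 before the annotated start and 30 from it into the first exon, 5′ to 3′ on the gene's own strand, with the longest run of C and T in capitals. The first 4 belong to the genes with the highest fold changes, the next 3 to genes among those with the lowest, and Rpl7a has the longest run of the 62. Rpl31 is at chr1:39367821-39367880 (plus strand), Rpl27 at chr11:101442215-101442274 (plus), Rpl39 at chrX:37085193-37085252 (minus) and Rps28 at chr17:33824533-33824592 (minus). Rps4x is at chrX:102189362-102189421 (minus), Rps2 at chr17:24720033-24720092 (plus), Rpl4 at chr9:64173357-64173416 (plus) and Rpl7a at chr2:26910777-26910836 (plus).
Rpl31: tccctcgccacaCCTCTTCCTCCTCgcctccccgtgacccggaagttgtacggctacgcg
Rpl27: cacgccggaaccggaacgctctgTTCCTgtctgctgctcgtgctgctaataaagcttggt
Rpl39: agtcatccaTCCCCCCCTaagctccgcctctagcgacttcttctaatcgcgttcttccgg
Rps28: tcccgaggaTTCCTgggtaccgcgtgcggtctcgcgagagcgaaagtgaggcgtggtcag
Rps4x: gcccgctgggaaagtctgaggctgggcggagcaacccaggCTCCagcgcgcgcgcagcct
Rps2: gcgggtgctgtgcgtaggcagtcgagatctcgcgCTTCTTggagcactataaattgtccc
Rpl4: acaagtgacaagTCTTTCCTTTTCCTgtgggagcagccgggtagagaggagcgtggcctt
Rpl7a: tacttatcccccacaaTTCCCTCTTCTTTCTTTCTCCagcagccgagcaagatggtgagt

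A run of at least 8 pyrimidines lay within 30 bases of the start in 31 of 62 of these windows (50%), against 20.3% of the 10559 tested genes with an entry and 21.3% of all 27025 entries. A stricter form, a C at the annotated start base followed by 4 pyrimidines, was present in 12 of 62 (19.4%), against 2.38% of tested genes and 2.49% of all entries. Annotated starts can be off by several bases or more, and Rpl31 shows its 13-base run ahead of the annotated start. For Rpl39 the RefSeq start is base 37085222, while the GENCODE gene begins at 37085402. For Rpl27 these are 101442245 and 101442298, and for Rps28 both are 33824562. A window therefore need not hold the start used in these cells. Other motifs were searched on both strands of 300 bases, 250 before the start and 50 after. The ETS factor core CCGGAAG was in 38.7% of the 62, against 17.2% of tested genes and 9.12% of all. The YY1 core AAGATGG was in 14.5%, against 7.14% and 6.48%, and the SP1 box GGGCGG in 59.7%, against 64.2% and 35.9%.

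PGE2 receptors can signal through cyclic AMP, whose response element is TGACGTCA. That full element was in 5 of 62 promoters (8.06%), those of Rpl27a, Rpl26, Rpl18, Rps9 and Rpl13, against 3.28% of tested genes and 1.88% of all. Its core TGACG, which the full element contains, was in 48.4%, against 31.4% and 21%. A match describes the letters in the window and no binding was measured. The median log2 fold change with PGE2 was 0.14 in the 31 genes with a pyrimidine run and 0.13 in the 29 tested genes without, and 0.14 both with and without the core TGACG (30 genes each). It was 0.17 in 24 genes with the ETS core and 0.13 in 36 without, and none of these differences was tested.

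Library totals were between 21006044 counts, in vehicle library 2, and 52730962 counts, in PGE2 library 2, so 3 counts corresponded to between 0.0569 and 0.143 CPM (counts normalised to the depth of the library). All 8 FAP markers were detected, with a summed level of 8162 to 15800 CPM in vehicle and 8001 to 20109 CPM in PGE2 libraries. Of 6 macrophage and leukocyte markers, Ptprc was at 0 throughout, and the sum was 8.57 to 9.22 CPM in vehicle and 11.5 to 12.3 CPM in PGE2 libraries, with Csf1r and Cd14 higher in the paired comparison described below. Of 5 Schwann cell markers, Sox10 was at 0 throughout, and the sum was 6.91 to 8.09 CPM in vehicle and 4.24 to 5.10 CPM in PGE2 libraries, with S100b and Cdh19 lower in that comparison. It also had 6 of 7 tested myogenic markers lower, and these markers summed to 226, 74.2 and 49.2 CPM in vehicle libraries 1 to 3 and to 153, 23.0 and 23.4 CPM in PGE2 libraries 1 to 3. Of the 8 FAP markers 2 were higher and 2 lower in the same comparison. Of 6 pericyte and smooth muscle cell markers 3 were lower. Their sum was 68.6 to 106 CPM in vehicle and 51.8 to 73.0 CPM in PGE2 libraries. Also lower were 1 of 3 tested endothelial and 1 of 4 tested tendon cell markers. Over all tested genes 6.91% were higher and 7.51% lower in that comparison. The part of the markers of other cell types in the results was not tested.

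Vehicle library 2, the shallowest, stood apart in the rows for pseudogenes of these same genes. Processed pseudogenes are copies of mRNAs set back into the genome, ribosomal protein mRNAs have many of them, and reads can move between a gene and its copies depending on how they were aligned. The 246 such rows held 0.401, 0.265 and 0.400 counts per 100 counts on the genes in vehicle libraries 1 to 3, and 0.379, 0.385 and 0.401 in PGE2 libraries 1 to 3. Of 78 rows with at least 100 counts, 54 were lowest in vehicle library 2. On unscaled library totals, Rpl38-ps2 was at 10.2, 1.48 and 10.7 CPM in vehicle libraries 1 to 3 and at 9.89, 11 and 8.26 CPM in PGE2 libraries. Other processed pseudogenes took 0.0887% of counts in vehicle library 2 and 0.111% to 0.124% in the others. The cause was not tested. Adding the pseudogene rows to their parent genes moved no fold change of the 81 by more than 0.00604 (log2), and without vehicle library 2 there were again 0 calls, with a median log2 fold change of 0.12.

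**Figure D1:**
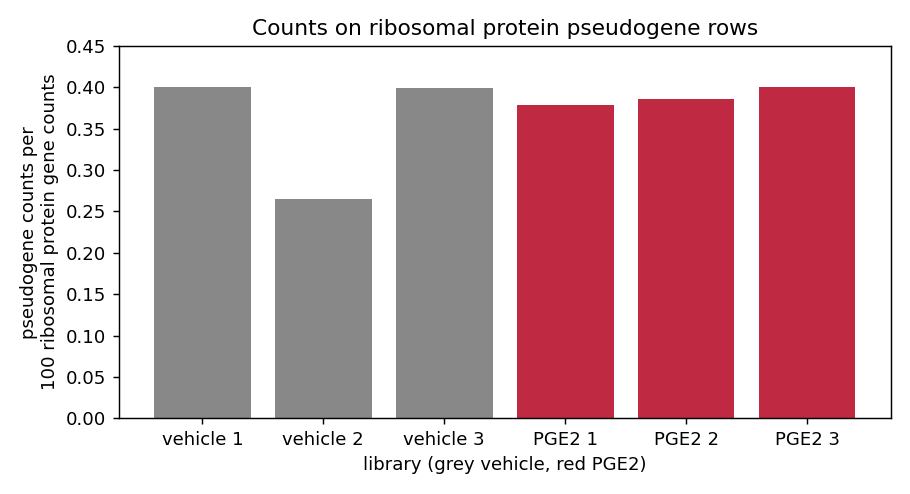
Counts on the 246 ribosomal protein pseudogene rows per 100 counts on the ribosomal protein genes, 1 bar per library (grey vehicle, red PGE2). Vehicle library 2 is at 0.265, while the other 5 libraries lie between 0.379 and 0.401.

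Ribosomal protein mRNAs were among the most abundant messages of these cells. Together they took 5.69%, 5.78% and 6.37% of all counts in vehicle libraries 1 to 3 and 6.66%, 6.43% and 5.67% in PGE2 libraries 1 to 3, or 5.95% ± 0.367 and 6.26% ± 0.520 (SD, n = 3 each). The groups overlapped: the lowest and the highest library were both PGE2 libraries. Of the 81 tested genes, 79 averaged 100 CPM or more, as did 2098 of the 15186 genes tested. The balance between subunits was steady, with 0.729 ± 0.00747 small subunit counts per large subunit count in vehicle and 0.727 ± 0.0130 in PGE2 libraries.

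In RPKM, which is CPM per kilobase of principal transcript, the level ran from 8.30 to 2981 over the 81 genes, with a median of 927. Among small subunit genes Rps2, at the mRNA entry channel, had the highest vehicle level (2432 RPKM), followed by Rps12 (2150) and Rps14 (1957). Among large subunit genes Rplp1 led (2824 RPKM), followed by Rplp0 (1727) and Rpl13a (1376). The lowest vehicle level was that of Rps4l among small subunit genes (74.8 RPKM) and of Rpl39l among large subunit genes (7.69 RPKM). These values depend on the transcript chosen for the length. The order of the genes by CPM was nearly the same in every library: Spearman's rho between libraries over the 81 genes was 0.984 to 0.998 for the 15 library pairs, as a description.

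None of the 81 genes passed the test for a change with PGE2 when all 6 libraries were compared. With edgeR and Benjamini-Hochberg adjustment over all genes, 0 were higher and 0 lower at an adjusted p under 0.05, where 52 of 15186 genes passed (0.342%). At an unadjusted p under 0.05 there were 4 of 81, against 20.1% of all tested genes; DESeq2 had 5 and limma-voom 4, with 0 past adjustment in either. The median log2 fold change (PGE2 over vehicle) was nevertheless 0.14, and 79 of 81 values were above 0, while the median of all tested genes was -0.001. Leaving out vehicle library 1 gave a median of 0.09 and leaving out PGE2 library 3 one of 0.20, and it was -0.02 after a correction for transcript length. The standard errors were 0.0622 to 0.125, and the 95% interval lay within a 2-fold change either way for 81 of 81 genes and within 1.5-fold for 80, the exception being Rpl31.

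**Figure D2:**
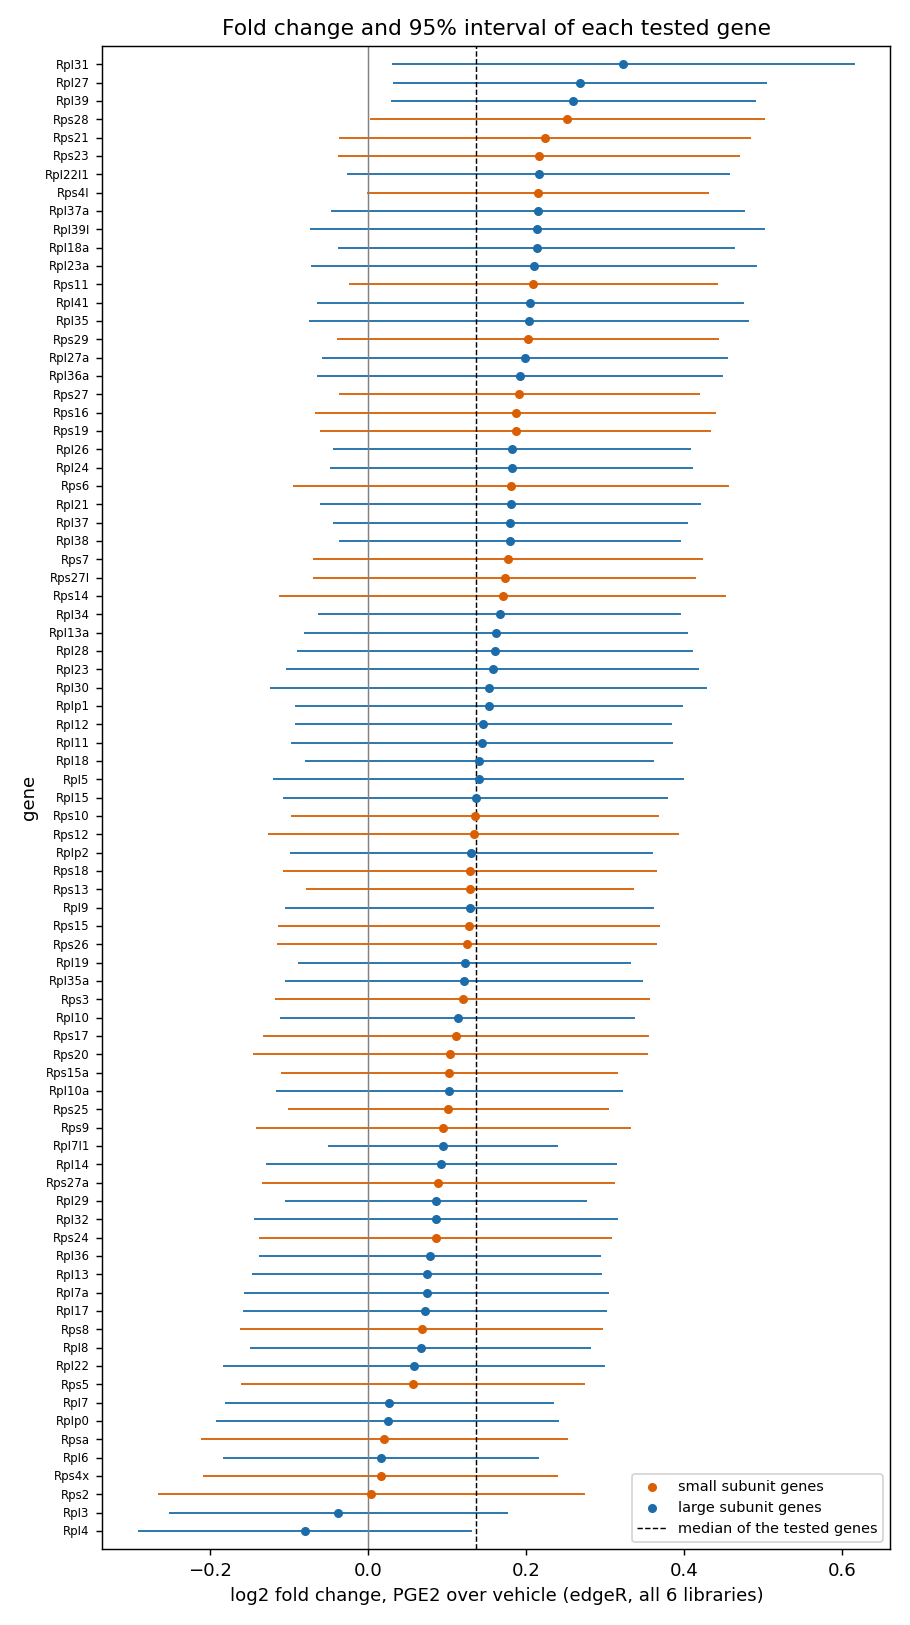
Log2 fold change of PGE2 over vehicle with its 95% interval for the 81 tested genes, from edgeR on all 6 libraries, sorted by value (orange small subunit, blue large subunit). Values run from -0.08 for Rpl4 to 0.32 for Rpl31 around a median of 0.14, and 4 intervals lie wholly above 0.

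Same-numbered vehicle and PGE2 libraries were also compared, because their expression deviated together, although the labels state no pairing. A swap of numbers 2 and 3 would also have met the rule used, a correlation over 0.1 (0.145 and 0.252). The paired edgeR fit takes the library number as a block. In it again 0 of the 81 genes were higher and 0 lower, although 2189 of all tested genes passed (14.4%). Unadjusted p under 0.05 was met by 8 of 81, against 31% of all genes. The smallest edgeR adjusted p of the family was 0.0762 in the paired fit, for Rpl31, and 0.206 without the pairing, for Rpl27.

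What varied was the library. The median level of the 81 genes was 9.27, 9.38 and 9.53 log2 CPM in vehicle libraries 1 to 3 and 9.53, 9.56 and 9.40 log2 CPM in PGE2 libraries 1 to 3. By this median vehicle library 3 lay at the level of PGE2 library 1, and PGE2 library 3 lay with vehicle library 2. By the median deviation of the genes from their own means, vehicle library 3 (0.045) lay below PGE2 library 1 (0.123). PGE2 library 3 was at -0.051 and vehicle library 2 at -0.087. Set against its own mean over the 6 libraries, a gene was above it in 1, 10 and 75 cases of 81 in vehicle libraries 1 to 3 and in 80, 80 and 15 cases in PGE2 libraries 1 to 3. The genes moved together: the median SD of a gene over the 6 libraries was 0.125 log2 units and fell to 0.0571 once each library's family median was taken away. In 2019 other genes that averaged 100 CPM or more these SDs were 0.144 and 0.145. In the 112 of such genes with a principal transcript under 1000 bases they were 0.204 and 0.117. In 77 mitochondrial ribosomal protein genes they were 0.150 and 0.0931, so a fall was also seen outside the family.

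**Figure D3:**
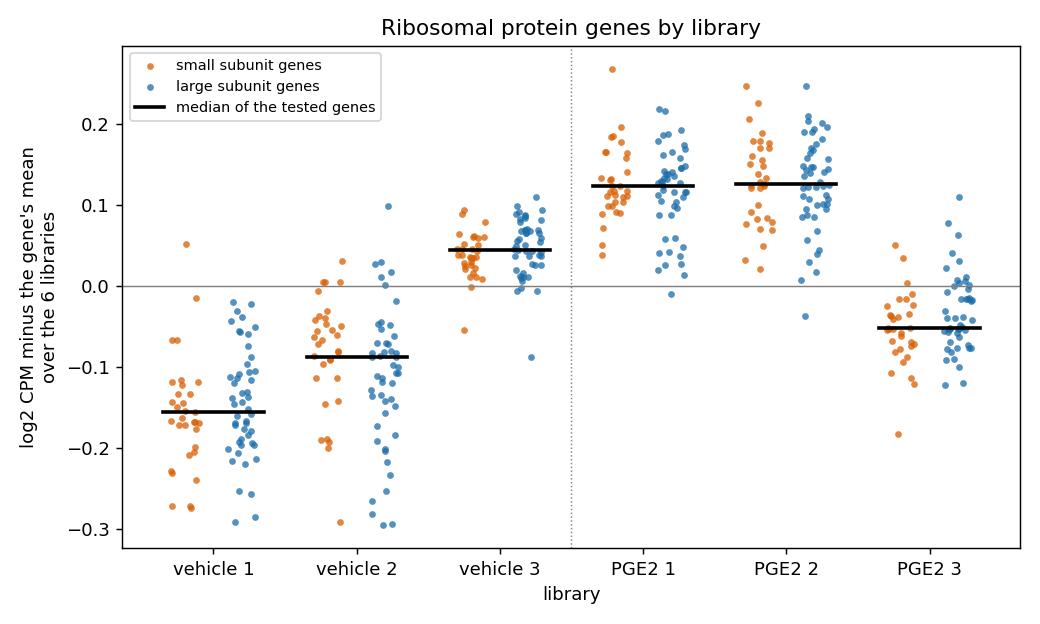
Log2 CPM of each of the 81 genes minus its own mean over the 6 libraries, by library (orange small subunit, blue large subunit, black bar the median of the 81). The points lie low in vehicle libraries 1 and 2 and in PGE2 library 3, and high in vehicle library 3 and PGE2 libraries 1 and 2.

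Within numbers, the difference was positive for numbers 1 and 2 and negative for number 3. For number 1, 81 of 81 genes were higher with PGE2, by a median of 0.28 log2 units (0.02 to 0.50). For number 2, 78 were higher and 3 lower (Rpl7, Rpl3 and Rpl4), with a median of 0.23. For number 3, 75 were lower and 6 higher, with a median of -0.09 (-0.19 to 0.08). The share of counts went the same way, with differences of 0.970, 0.657 and -0.697 percentage points. In all, 72 of 81 genes were higher in numbers 1 and 2 and lower in number 3. The paired fit on numbers 1 and 2 alone, which leaves 1 residual degree of freedom, called 59 of 81 higher, where it called 15.6% of 15316 genes higher; without number 1 or number 2 it called 0, with medians of 0.07 and 0.09.

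Ribosomal protein mRNAs are short, and the medians of short transcripts as a class were higher with PGE2 in numbers 1 and 2. Among the other 1610 tested genes with a principal transcript under 1000 bases, the median difference was 0.29, 0.33 and 0.005 log2 units in numbers 1 to 3, and the median log2 fold change was 0.20, above the 0.14 of the ribosomal protein genes. For 112 of these that also averaged 100 CPM or more the median was 0.26, with 44 higher and 1 lower in the paired fit. In that fit 6.91% of all tested genes were higher and 7.51% lower. The longest other genes, 1530 with a median length of 7492 bases, had medians of -0.31, -0.33 and -0.01.

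**Figure D4:**
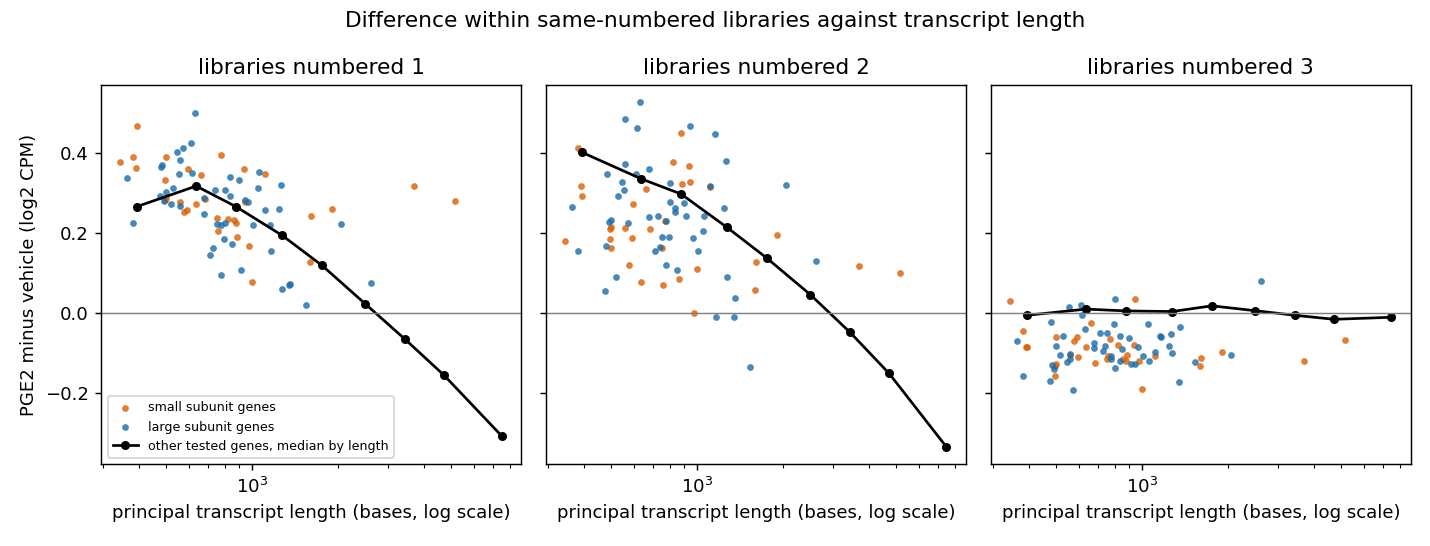
Difference between the PGE2 and the vehicle library of the same number (log2 CPM) against principal transcript length on a log axis, 1 panel per number; points are the 81 genes (orange small, blue large subunit) and the black line joins medians of the other tested genes in 9 groups by length. The line falls with length in numbers 1 and 2 and is flat in number 3, where the points lie mostly below it.

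When a length trend was fitted in each library and removed, the median log2 fold change of the 81 genes went from 0.14 to -0.02, with 26 of 81 above 0. Fitted on the median length of each gene's transcripts instead of the longest, the trend left a median of 0.05 with 67 of 81 above 0, and on the principal transcript it left -0.05 with 25 above 0. The sign of the family median therefore turned with the choice of length. No gene passed under these 3 corrections. With the length trend and the pairing together, Rpl4 alone was lower (log2 fold change -0.21 ± 0.065, edgeR adjusted p = 0.0427), where 8.03% of all tested genes were lower. Rpl4 did not pass on principal transcript length (-0.19, edgeR adjusted p = 0.0576).

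Within the family, genes with shorter principal transcripts also had the larger fold changes. The lengths are annotated ones, among them 5130 bases for Rps15a and 3706 for Rps20. The mRNA lengths in these cells were not measured. The 27 shortest (345 to 612 bases) had a median of 0.17, the next 27 (614 to 899 bases) 0.14 and the 27 longest (914 to 5130 bases) 0.10. Spearman's rho of fold change with principal transcript length was -0.343 (Pearson -0.372, n = 81), and -0.527, -0.206 and -0.017 for the differences in numbers 1 to 3. With the mean level in CPM rho was -0.478 (Pearson -0.436). The 81 points share the same 6 libraries, and these values are descriptions.

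Rpl31, a protein near the exit of the nascent peptide tunnel, had the highest fold change of the family. It was at 510.0, 512 and 653 CPM in vehicle libraries 1 to 3 and at 722, 738 and 635 CPM in PGE2 libraries 1 to 3. PGE2 library 3 fell below vehicle library 3, so the groups overlapped. The log2 fold change was 0.32 ± 0.125 (SE; edgeR adjusted p = 0.215, paired 0.0762), and with the length trend it was 0.15.

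Rpl27, another large subunit protein, was at 323, 303 and 362 CPM and at 412, 417 and 361 CPM. Its 2 libraries numbered 3 were level, and the log2 fold change was 0.27 ± 0.101 (edgeR adjusted p = 0.206). Rpl39, a very small protein that lines the exit tunnel, was at 293, 308 and 360.3 CPM in vehicle and at 394, 392 and 365 CPM in PGE2 libraries. These groups did not overlap, with PGE2 library 3 just above vehicle library 3, and the log2 fold change was 0.26 ± 0.0991 (edgeR adjusted p = 0.209). With the length trend Rpl27 and Rpl39 were at 0.07 and 0.06.

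Among small subunit genes Rps28, which sits near the mRNA exit, had the highest fold change, 0.25 ± 0.107 (edgeR adjusted p = 0.246). Its levels were 395, 406 and 474 CPM in vehicle and 518, 541 and 459 CPM in PGE2 libraries, with PGE2 library 3 inside the vehicle range. All 32 small subunit genes had a fold change above 0, with a median of 0.13, and 47 of 49 large subunit genes did, with a median of 0.14. Both exceptions were large subunit core proteins, Rpl4 and Rpl3.

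Rpl4, which extends a loop into the exit tunnel, was at 1462, 1599 and 1545 CPM in vehicle and at 1482, 1455 and 1419 CPM in PGE2 libraries (log2 fold change -0.08 ± 0.0904, edgeR adjusted p = 0.657). Rpl3, near the peptidyl transferase centre, was at 1314, 1371 and 1433 CPM and at 1380.0, 1361 and 1271 CPM (-0.04 ± 0.092). Rps2 was at 2515, 2327 and 2439 CPM and at 2654, 2510.2 and 2137 CPM (0.004 ± 0.116). Rps4x, encoded on the X chromosome, was at 0.02 ± 0.0964. These abundant genes with longer transcripts stayed nearest to no difference, and the groups of each overlapped.

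The P stalk is a flexible arm of the large subunit that recruits the translation factors that use GTP. Its base, Rplp0, was at 2270.5, 2368 and 2398 CPM in vehicle and at 2388, 2431 and 2339.5 CPM in PGE2 libraries, with overlapping groups. Its log2 fold change was 0.02 ± 0.093. The short arm proteins Rplp1 and Rplp2 were at 0.15 ± 0.105 and 0.13 ± 0.0984. Rplp1 was at 1341, 1376 and 1510.4 CPM and at 1655, 1618 and 1426 CPM, so vehicle library 3 lay above PGE2 library 3.

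Several members have further roles. Rpl5 and Rpl11 form, with 5S ribosomal RNA, the particle that binds the p53 regulator Mdm2 when assembly fails. Rpl5 had a log2 fold change of 0.14 ± 0.111 and Rpl11 of 0.14 ± 0.103. Rps6, the classic substrate of S6 kinase, was at 549.9, 471 and 608 CPM and at 643, 643 and 560.1 CPM (0.18 ± 0.118). None of the 3 passed (edgeR adjusted p between 0.429 and 0.517), and in each of them vehicle library 3 lay above PGE2 library 3.

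The paralogue genes were expressed at lower levels than their standard counterparts. Rpl22l1, the paralogue of Rpl22, was at 98.0, 109 and 128 CPM in vehicle and at 125, 135 and 129 CPM in PGE2 libraries (0.22 ± 0.104, edgeR adjusted p = 0.292), and Rpl22 itself was at 0.06 ± 0.104. Rps27l, a known p53 target, was at 193, 200 and 203 CPM and at 253, 224 and 194 CPM (0.17 ± 0.104), beside 0.19 ± 0.0978 for Rps27. Rpl39l, best known from testis, was at 6.02, 6.29 and 6.26 CPM and at 7.47, 7.64 and 6.42 CPM (0.21 ± 0.123). Rpl7l1, a factor of large subunit assembly, was at 104, 101 and 108 CPM and at 109, 111 and 114 CPM (0.10 ± 0.0622). Rps4l, annotated in GENCODE as a transcribed processed pseudogene, was at 64.2, 71.6 and 75.8 CPM and at 77.9, 90.0 and 77.7 CPM (0.21 ± 0.0929).

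Groups that did not overlap, with PGE2 higher, were seen for 5 of 81 genes (Rpl39, Rps4l, Rpl39l, Rps27 and Rpl7l1), against 13.7% of all tested genes, and with PGE2 lower for 0 of 81, against 12.2%. These counts were below the background. The 5 genes and Rpl22l1 were the 6 with a positive difference in all 3 numbers. Rps4l, Rpl39l and the Rpl22 and Rpl7 paralogues share sequence with other genes, so their counts are uncertain where reads could be placed on either copy.

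Other ribosomal proteins have symbols that the rule does not take. Among those described here Rpl36al passed in the paired fit: this close copy of Rpl36a went from 118 ± 10.6 to 153 ± 12.3 CPM (log2 fold change 0.38 ± 0.0906 paired, edgeR adjusted p = 0.0211, or 0.119 without the pairing). In the paired fit 6.91% of all tested genes were higher. Fau, which makes a ubiquitin-like fusion to a ribosomal protein, was at 0.23, Rps3a1 at 0.09, and Rack1, listed under its older symbol Gnb2l1, at 0.02. Rps27rt, a retrogene copy of Rps27, had 31 counts (1.47 CPM) in vehicle library 2 and 9.79 to 12.9 CPM in the other 5 libraries.

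Mitochondrial ribosomal proteins, encoded in the nucleus for the separate ribosome of mitochondria, were higher in part. Their median principal transcript length was 1251.5 bases, between the 774 of the 81 genes and the 2703 of all tested genes. Of 77 tested, 18 were higher and 0 lower in the paired fit, 38 met an unadjusted p under 0.05 without the pairing, and 0 passed without it. Over all tested genes 6.91% were higher in the paired fit and 20.1% met an unadjusted p under 0.05, and 44 of the 112 other short, abundant genes were higher in the paired fit. The median log2 fold change of the 77 was 0.20, with differences of 0.27, 0.28 and 0.03 in numbers 1 to 3. Mrps12 went from 23.8 ± 2.21 to 31.9 ± 1.20 CPM (0.42 ± 0.0906 paired, edgeR adjusted p = 0.0140) and Mrpl20 from 41.2 ± 2.64 to 55.1 ± 5.24 CPM (0.42 ± 0.0827, edgeR adjusted p = 0.00996). With the length trend and the pairing 12 were higher and 2 lower, where 8.92% and 8.03% of all tested genes were. The difference between the families was not tested.

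Among translation factors whose mRNAs also carry TOP tracts, Eif4b and Pabpc1 fell in the paired fit. Of 14 tested, 0 passed without the pairing (3 at an unadjusted p under 0.05). Over all tested genes 0.342% passed without the pairing and 20.1% met that unadjusted p. In the paired fit 2 of the 14 were lower, where 7.51% of all tested genes were lower. With the length trend added 7 were lower, where 8.03% of all tested genes were. The median log2 fold change was -0.12. Eif4b, which helps the helicase eIF4A, fell from 726 ± 92.5 to 557 ± 9.64 CPM (-0.37 ± 0.0921 paired, edgeR adjusted p = 0.0244). Pabpc1, the cytoplasmic poly(A)-binding protein, fell from 1745 ± 214 to 1360 ± 57.5 CPM (-0.35 ± 0.0958 paired, edgeR adjusted p = 0.0352). Eef2, which moves the ribosome along the mRNA, was at 3335, 3764 and 2995 CPM and at 2595, 2579 and 2716 CPM, with groups apart, and did not pass (edgeR adjusted p = 0.17, paired 0.0512). Their median was at -0.06, -0.13 and -0.11 in numbers 1 to 3.

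**Figure D5:**
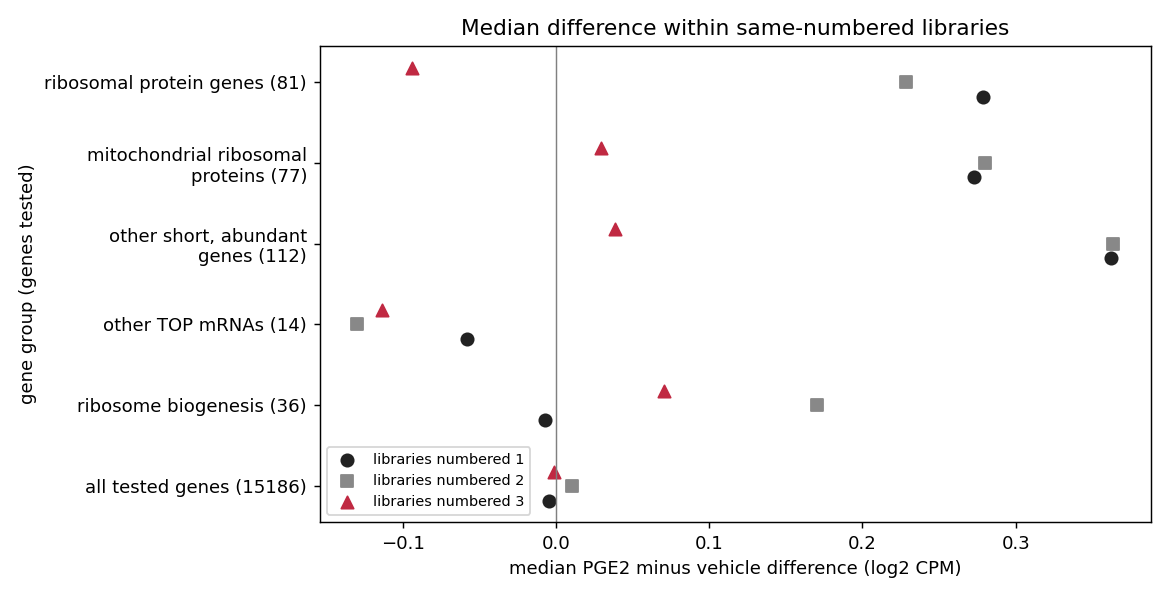
Median difference between the PGE2 and the vehicle library of the same number (log2 CPM), by gene group, with 1 marker per number. The ribosomal protein genes are at 0.28, 0.23 and -0.09, other short, abundant genes at 0.36, 0.36 and 0.04, and translation factors with TOP mRNAs at -0.06, -0.13 and -0.11.

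Few genes that build ribosomes passed: 3 of 36 tested did so in the paired fit, a share below the 14.4% of all tested genes. Sbds, which releases a block on subunit joining, was higher (0.26 ± 0.0757, edgeR adjusted p = 0.0431), and Ncl (nucleolin, -0.35 ± 0.0805, edgeR adjusted p = 0.0187) and Utp20 (-0.51 ± 0.0901, edgeR adjusted p = 0.00555), of the small subunit processome, were lower. None passed without the pairing, where 7 met an unadjusted p under 0.05, and the median was 0.10. Over all tested genes 0.342% passed without the pairing and 20.1% met that unadjusted p. With the length trend and the pairing 1 was higher and 2 lower, among them Utp20, where 8.92% and 8.03% of all tested genes were. Sbds and Ncl did not pass in that fit (edgeR adjusted p = 0.119 and 0.133).

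Of 18 regulators of mTORC1 and of TOP mRNAs, 0 passed without the pairing (10 at an unadjusted p under 0.05), and in the paired fit 3 were higher and 4 lower. Over all tested genes 20.1% met that unadjusted p, and 6.91% were higher and 7.51% lower in the paired fit. Ddit4, an inhibitor of mTORC1 made in stress, went from 89.5, 101 and 91.5 CPM to 138, 151 and 130.3 CPM (0.57 ± 0.0681 paired, edgeR adjusted p = 0.000643). Deptor, an inhibitor that is part of the complex, went from 57.7, 56.1 and 43.1 CPM to 38.4, 33.5 and 31.1 CPM (-0.60 ± 0.0813 paired, edgeR adjusted p = 0.00129). In both genes the groups were apart. Eif4ebp1, which holds back cap-dependent initiation, and the activator Rheb were the other higher genes (0.34 and 0.30), and Tsc1, Sesn1 and Sesn2, which restrain the pathway, the other lower ones (-0.38, -0.34 and -0.27). With the length trend and the pairing 5 were higher, among them the S6 kinase genes Rps6kb1 and Rps6kb2, and 3 lower. In that fit 8.92% of all tested genes were higher and 8.03% lower, and Tsc1 did not pass (-0.18, edgeR adjusted p = 0.09).

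None of 18 initiation factors outside the TOP list passed in either fit (3 at an unadjusted p under 0.05 without the pairing), with a median of -0.006. None of 10 genes of ribosome quality control passed either (3 at an unadjusted p under 0.05), with a median of 0.04. Over all tested genes 14.4% passed in the paired fit. Without the pairing 0.342% passed and 20.1% met that unadjusted p. With the length trend and the pairing the cap-binding protein gene Eif4e was higher (0.23 ± 0.0605, edgeR adjusted p = 0.0202). In the same fit Hbs1l, which acts in the rescue of stalled ribosomes, was lower (-0.23 ± 0.0539, edgeR adjusted p = 0.0104). Over all tested genes 8.92% were higher and 8.03% lower in it.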

How the data were processed

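Read counts per gene for 6 libraries, as whole numbers, were deposited by the authors. Build mm10 was used per the submitters' processing notes, while the aligner, counter and strand setting were not given in the sources used here. Genes and lists were chosen with earlier results of these data known, and the mitochondrial ribosomal protein list after their values were seen. Counts were tested with edgeR 4.0.16 (limma 3.58.1, R 4.3.3): filterByExpr, trimmed mean of M values scaling, robust quasi-likelihood test of PGE2 against vehicle and Benjamini-Hochberg adjustment over all 15186 genes at 0.05. CPM uses the scaled totals, and log2 CPM a prior count of 2. The CPM values of Rpl38-ps2 and those given for 3 counts use the unscaled library totals instead. Fold changes carry standard errors and CPM means SDs over 3 libraries.

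Same-numbered libraries deviated together from their group means (correlations 0.621, 0.169 and 0.422), so by the rule of over 0.1 the numbers were treated as pairs. The labels do not state this. Vehicle library 3 correlated at 0.252 with PGE2 library 2, and vehicle library 2 at 0.145 with PGE2 library 3. A swap of numbers 2 and 3 would thus also meet the rule, and the paired results rest on the numbers as given. The paired fit has the number as a block. Transcript lengths came from GENCODE (GRCm38), known for 99.4% of tested genes, and the length trend was a lowess with a span of 0.3. Alternatives were DESeq2 1.42.0, limma-voom, other scalings, filters and lengths, and each library left out. The fits were tested on simulated data. Genes named are the 4 highest and 4 lowest fold changes, the highest and lowest levels per length by subunit, the P stalk, the paralogues, Rps6, Rpl5 and Rpl11, and up to 3 members of each list by p. Rpl36al, Rack1, Rps27rt and other list members were named after their values were seen.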

Additional observations from a re-analysis of the deposited data

How the results depend on the processing

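The count of 0 ribosomal protein genes past the threshold was unchanged by another scaling, filter or test without pairing, with any 1 library left out (0 to 0 each time) and by the length corrections without pairing. It changed under 3 settings that used the replicate block: with the length trend 1 gene was lower, by DESeq2 1 was higher (Rpl31), and without the libraries numbered 3 a total of 59 were higher with a median log2 fold change of 0.251. The other replicate block fits gave 0 calls, with medians of 0.138 (all libraries), 0.0738 and 0.087 (without number 1 and 2).

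The median fold change of 0.14 became -0.0241 with the length trend, -0.0283 with the trend fitted without these genes, -0.0241 with the trend and replicate block, -0.0466 with the trend on principal transcript length and -0.0429 with that trend and replicate block. With the trend on median transcript length it stayed positive, at 0.0481. Leaving out 1 library gave medians of 0.087 (without vehicle library 1) to 0.197 (without PGE2 library 3), and differences in share of counts of 0.106 to 0.603 percentage points, against 0.310. The share difference was 0.106 without PGE2 library 1, 0.184 without vehicle library 1, 0.221 without PGE2 library 2, 0.521 without vehicle library 3 and 0.603 without PGE2 library 3. With library totals alone the median was 0.10 where all genes moved to -0.04. Of 648 values of 24 named genes under 27 settings, 88 changed sign, none of them in a called value. Trends on principal transcript length, block fits by DESeq2 and limma-voom and added pseudogene rows were chosen after seeing the data. The SD of the library medians, pooled within the groups, was 0.108, and the number of libraries limits the precision.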

Other observations

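The 6 genes with a positive difference in all 3 numbers were Rpl39, Rps27 and the paralogue genes Rpl22l1, Rps4l, Rpl39l and Rpl7l1, a set noticed after the values were seen. In number 3, where 75 of 81 genes were lower with PGE2, these were at 0.02, 0.03, 0.02, 0.04, 0.04 and 0.08 log2 units. The remaining paralogue, Rps27l, was at -0.06 there.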
